A study of Homo sapiens with 6 samples.

Results

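S100 proteins are small calcium-binding proteins with paired EF-hand motifs that bend on binding calcium and then attach to partner proteins such as annexins. Most of their genes lie together on the long arm of chromosome 1, where they flank the genes of the cornified envelope in a region called the epidermal differentiation complex, and squamous epithelia express many of them in a layer-dependent way. S100A2 is known from basal keratinocytes, while S100A7, S100A8 and S100A9 are known as alarmins of differentiating or inflamed squamous epithelium.

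Here 10 members of the family (S100A2, S100A4, S100A6, S100A7, S100A8, S100A9, S100A10, S100A11, S100A14 and S100A16) were followed among 58884 genes, each chosen by its symbol and each present in 1 row. RNA-seq had been performed on KYSE70, a human esophageal squamous cell carcinoma (ESCC) line that carries mutant NFE2L2 (the gene of the transcription factor NRF2), and on NRF2null-KYSE70, in which NFE2L2 had been edited in exon 2 by CRISPR-Cas9, with 3 libraries per line. All cells were untreated and grown in the same serum-containing medium. The knockout was incomplete, since shorter NFE2L2 transcripts and a faint, smaller NRF2 protein were still found in these cells. NRF2null-KYSE70 was obtained by single-cell cloning, so the edit and the properties of that 1 clone cannot be told apart, and nothing states that the libraries of a line came from separate cultures, so p-values measure the spread among these libraries.

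Library totals ranged from 52072801 to 63975313 reads, so that 3 reads, the limit taken for a gene without reads, corresponded to 0.0469 to 0.0576 CPM (reads scaled to a common library total). NFE2L2 RNA, the check of the labels, was 9928 ± 102 normalized counts (SD, n = 3) in KYSE70 and 6093 ± 319 in NRF2null-KYSE70 (log2 fold change -0.71, limma adjusted p = 9.4e-08), which does not measure the edited protein. All 15 squamous markers were above the detection filter, with KRT5 at 3633 TPM (transcripts scaled for length and library total) in KYSE70 and 2151 TPM in NRF2null-KYSE70. In the same order, KRT6B (0.23 and 0.18 TPM), KRT16 (0.25 and 0.49) and KRT14 (1.09 and 3.68) were far lower. NRF2null-KYSE70 library 1 stood apart from the other libraries of its line by lower values of short transcripts, and the difference of each member is therefore also given without it.

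The members split into genes read at high level and genes with few or no reads. Members with a mean of at least 100 normalized counts numbered 5 (S100A2, S100A4, S100A6, S100A10 and S100A11), and S100A14 and S100A16 were detected at low level. S100A7, S100A8 and S100A9 were at or near 0 in both lines. The 10 genes together took 0.181% to 0.200% of the reads in KYSE70 libraries and 0.154% to 0.178% in NRF2null-KYSE70 libraries. In the comparison of the lines, S100A2, S100A4 and S100A6 were lower in NRF2null-KYSE70, S100A10 was slightly higher, and S100A11 differed by less than its spread. In bulk RNA, fewer cells that express a gene and less RNA per cell cannot be told apart.

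The promoters of 4 members are shown because they represent the different patterns: S100A2 and S100A6 (high and lower in NRF2null-KYSE70), S100A14 (low in both lines) and S100A9 (no read in any library). Each sequence is the 250 bases before a RefSeq start site on build GRCh38.p14, 5′ to 3′ on the strand of the gene, and all 14 windows listed for the 10 members matched the hg38 genome. Capitals mark matches, on either strand, to the core of the antioxidant response element bound by NRF2 (TGACNNNGC), to the AP-1 site (TGANTCA) or to the TATA box (TATAAA), of which the first and the second share the letters TGA. The S100A2 window lies at chr1:153565845-153566094, S100A6 at chr1:153535992-153536241 and S100A14 at chr1:153616326-153616575, all on the minus strand, and S100A9 at chr1:153357604-153357853 on the plus strand.
S100A2: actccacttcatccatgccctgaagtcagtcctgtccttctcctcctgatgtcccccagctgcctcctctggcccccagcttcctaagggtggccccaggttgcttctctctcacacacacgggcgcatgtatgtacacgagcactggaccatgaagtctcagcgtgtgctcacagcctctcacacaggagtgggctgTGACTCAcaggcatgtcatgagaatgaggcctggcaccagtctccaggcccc
S100A6: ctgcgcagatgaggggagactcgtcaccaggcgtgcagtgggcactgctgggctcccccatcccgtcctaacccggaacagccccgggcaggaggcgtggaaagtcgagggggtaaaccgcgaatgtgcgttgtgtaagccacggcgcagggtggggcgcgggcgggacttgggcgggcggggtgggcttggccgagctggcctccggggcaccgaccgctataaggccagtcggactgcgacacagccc
S100A9: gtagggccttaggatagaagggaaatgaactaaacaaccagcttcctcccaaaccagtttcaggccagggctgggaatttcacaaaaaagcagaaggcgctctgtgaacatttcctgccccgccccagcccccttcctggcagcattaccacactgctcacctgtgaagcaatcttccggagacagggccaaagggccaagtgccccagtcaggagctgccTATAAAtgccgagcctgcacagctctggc
S100A14: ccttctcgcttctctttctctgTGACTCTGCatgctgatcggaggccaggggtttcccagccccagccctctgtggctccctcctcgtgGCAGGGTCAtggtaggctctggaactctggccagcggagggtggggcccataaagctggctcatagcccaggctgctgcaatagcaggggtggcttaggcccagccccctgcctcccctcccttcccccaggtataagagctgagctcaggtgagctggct

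S100A14 was the member with matches to the antioxidant response element core, 2 in number, starting at -228 on the strand of the gene and at -161 on the opposite strand, counted from the start site. Such a match was present in 10.9% of 35116 promoter windows of the same length. An AP-1 match, present in 6.57% of all windows, was found at -52 in the S100A2 window shown and not in its second window. TATA boxes (10.7% of all windows) were found at -31 in S100A4, at -28 in S100A7 and at -29 in S100A9. S100A8 has 3 windows, of which 1 held a TATA box at -29 and another held it at -126. The windows of S100A6, S100A10 and S100A11 held none of these motifs, as did those of S100A16, and the first 3 differed from the other members in base composition, with observed over expected CpG ratios of 0.803, 0.786 and 0.741 against a median of 0.558 over all windows. In the other members the ratio ranged from 0.0463 in S100A7 to 0.305 in a window of S100A16. These matches and ratios describe the letters of the windows and do not measure binding, and the absence of a match says only that these letters are not in the window.

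Between genes, levels were compared only as TPM, calculated from whole reads and the length of the canonical transcript. In KYSE70 the order was S100A11 (2098 ± 25.2 TPM, n = 3), S100A6 (1792 ± 102), S100A10 (1517 ± 40.8), S100A2 (1211 ± 55.9) and S100A4 (54.5 ± 2.99), and the 3 libraries of neighbours in this order did not overlap. In NRF2null-KYSE70 S100A11 (2153 ± 81.6 TPM) was followed by S100A10 (1774 ± 16.3), S100A6 (1301 ± 161), S100A2 (953 ± 83.4) and S100A4 (35.6 ± 3.91), again without overlap between neighbours. The places of S100A6 and S100A10 were thus exchanged between the lines. By mean TPM over both lines, S100A11 ranked 70 among 12794 protein-coding genes tested, S100A10 ranked 87, S100A6 ranked 96 and S100A2 ranked 129, whereas S100A4 ranked 3587. S100A14 (0.150 ± 0.116 TPM in KYSE70, 0.589 ± 0.195 in NRF2null-KYSE70) and S100A16 (0.249 ± 0.215 and 0.862 ± 0.605) were near the bottom at ranks 12040 and 11754, and their libraries overlapped in each line.

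**Figure D1:**
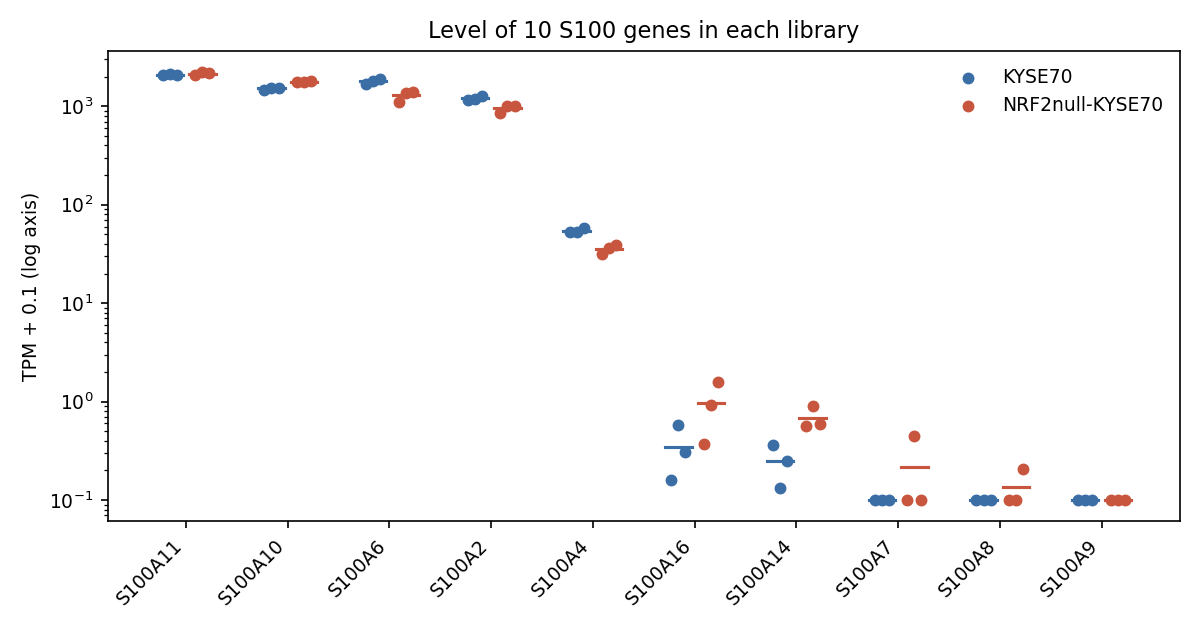
Level of the 10 S100 genes in each library as TPM + 0.1 on a log axis, with 1 point per library, a short bar at the mean of each line and the lines in different colours. S100A11, S100A10, S100A6 and S100A2 lie between 857 and 2224 TPM, S100A4 lies between 31.3 and 58.0 TPM, and S100A7, S100A8 and S100A9 lie at or near the bottom of the axis.

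Of the 10 members, 7 passed the filter of a mean of at least 10 normalized counts and entered the test, and 2 of these (S100A14 and S100A16) passed only through their values in NRF2null-KYSE70. At limma adjusted p under 0.05, 5 of the 7 differed between the lines, beside 57.6% of the 15994 genes tested. Lower in NRF2null-KYSE70 were 3 members (28.3% of all genes) and higher were 2 (29.3%). When a log2 fold change of 1 or more in size was also required, 1 member was counted, S100A14 (14.7% of all genes, of which 7.23% higher and 7.43% lower), but the filter itself favoured its direction, so nothing is read from this count. The 3 libraries of each line did not overlap for 5 of the 7 members, against 63.4% of all genes tested. The median log2 fold change of the 7 tested members was 0.04 and that of all genes tested was -0.01. Read against these shares, the counts are no result about the members as a group, and their differences are described gene by gene.

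S100A2, a nuclear S100 protein of basal keratinocytes, is encoded at chr1:153561108-153567890 (minus strand, 3 exons in the canonical transcript). Its normalized counts were 29000, 29866 and 32869 in KYSE70 and 21065, 25759 and 25709 in NRF2null-KYSE70. The lowest KYSE70 library was above the highest NRF2null-KYSE70 library, and NRF2null-KYSE70 library 1 was the lowest of all. The mean fell from 30578 ± 2030 to 24178 ± 2696, or 79.1% of KYSE70 (log2 fold change -0.34 ± 0.075 SE, limma adjusted p = 0.0017). Without NRF2null-KYSE70 library 1 the log2 fold change was -0.25 (limma adjusted p = 0.00015).

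S100A6, or calcyclin, a cytoplasmic S100 protein that binds annexins and the calcyclin-binding protein, is encoded at chr1:153534599-153536244 on the minus strand. Its normalized counts were 18552, 20212 and 21548 in KYSE70 and 12188, 15708 and 16114 in NRF2null-KYSE70, so that the lines did not overlap. The mean fell from 20104 ± 1501 to 14670 ± 2159, or 73.0% of KYSE70 (log2 fold change -0.46 ± 0.091 SE, limma adjusted p = 0.00078). Without NRF2null-KYSE70 library 1 the log2 fold change was -0.33 (limma adjusted p = 1.0e-05). Exons of S100A6 overlap those of BX470102.1, a gene on the opposite strand with 39.4 ± 22.1 and 33.3 ± 11.1 normalized counts in KYSE70 and NRF2null-KYSE70 (log2 fold change -0.13, limma adjusted p = 0.81), and the strand setting of the counting is not given in the sources used here.

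S100A4, which binds non-muscle myosin and is known for its link to cell motility and metastasis, is encoded at chr1:153543613-153550136 on the minus strand. Its normalized counts were 687, 698 and 786 in KYSE70 and 404, 495 and 524 in NRF2null-KYSE70. It was lower in every NRF2null-KYSE70 library than in any KYSE70 library. The mean fell from 723 ± 54.3 to 474 ± 62.8, or 65.6% of KYSE70 (log2 fold change -0.61 ± 0.11 SE, limma adjusted p = 0.00045). S100A4 had the largest decrease among the tested members, and the log2 fold change without NRF2null-KYSE70 library 1 was -0.50 (limma adjusted p = 0.00032). Its neighbour S100A3 overlaps the S100A4 gene on the same strand without shared exons and had 56.1 ± 5.09 and 47.8 ± 12.4 normalized counts (log2 fold change -0.26, limma adjusted p = 0.46).

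S100A10, the light chain of the annexin A2 heterotetramer, which is held in an active shape without calcium, is encoded at chr1:151982915-151993859 on the minus strand. Its normalized counts were 25124, 26289 and 27503 in KYSE70 and 29722, 31245 and 31579 in NRF2null-KYSE70. Every NRF2null-KYSE70 library was above every KYSE70 library. The mean rose from 26305 ± 1190 to 30848 ± 990, or 117% of KYSE70 (log2 fold change 0.23 ± 0.049 SE, limma adjusted p = 0.0013), with 0.26 without NRF2null-KYSE70 library 1 (limma adjusted p = 3.2e-05).

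S100A11, a partner of annexin A1 found in nucleus and cytoplasm of keratinocytes, is encoded at chr1:152032506-152047907 on the minus strand. Its normalized counts were 29850, 30713 and 30951 in KYSE70 and 29224, 32971 and 32096 in NRF2null-KYSE70. NRF2null-KYSE70 library 1 was the lowest and the other NRF2null-KYSE70 libraries the highest, so that the lines overlapped. The log2 fold change was 0.04 with a 95% interval from -0.07 to 0.15 (limma adjusted p = 0.52), and it was 0.09 without NRF2null-KYSE70 library 1 (limma adjusted p = 0.049). With quantile normalization and with scaling to library totals it was -0.03, so its direction was not settled.

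**Figure D2:**
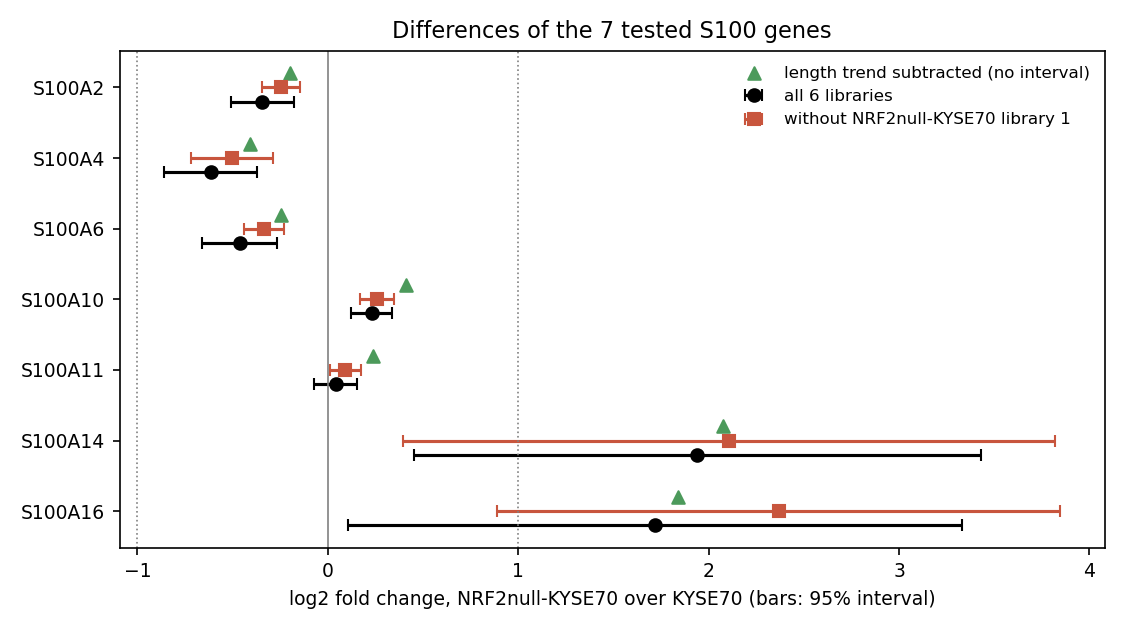
Log2 fold change (NRF2null-KYSE70 over KYSE70) of the 7 tested S100 genes with 95% intervals from the limma fit, with all libraries, without NRF2null-KYSE70 library 1, and after subtraction of the trend with transcript length (no interval), with dotted lines at -1 and 1. S100A2, S100A4 and S100A6 lie below 0 and S100A10 above 0 in each version, while the intervals of S100A14 and S100A16 are far wider.

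S100A14 and S100A16 lie side by side at chr1:153614255-153616986 and chr1:153606886-153613145, both on the minus strand, and their products can bind each other. S100A14 had 8, 1 and 4 reads in KYSE70 libraries and 12, 23 and 12 in NRF2null-KYSE70 libraries, and the lines did not overlap. The means were 4.08 ± 3.11 and 16.1 ± 5.61 normalized counts (log2 fold change 1.94 ± 0.69 SE). Since S100A14 passed the filter only through NRF2null-KYSE70, its call (limma adjusted p = 0.028) is not taken as evidence of a rise, and without the filter the limma adjusted p was 0.047. Without NRF2null-KYSE70 library 1 the log2 fold change was 2.11 (limma adjusted p = 0.034). Leaving out 1 library at a time gave limma adjusted p-values from 0.017 to 0.11, with values above the threshold without KYSE70 library 2 (0.083), NRF2null-KYSE70 library 2 (0.11) or NRF2null-KYSE70 library 3 (0.056). S100A16 had 2, 16 and 6 reads in KYSE70 and 8, 26 and 40 in NRF2null-KYSE70, so that the lines overlapped. Its means were 7.54 ± 6.45 and 26.4 ± 18.8 normalized counts (log2 fold change 1.72, 95% interval 0.11 to 3.33, limma adjusted p = 0.064, and 0.11 without the filter). The call was gained without NRF2null-KYSE70 library 1 (log2 fold change 2.37, limma adjusted p = 0.0071), without KYSE70 library 2 (2.31) and with DESeq2 on whole reads (1.80, DESeq2 adjusted p = 0.031). It was not gained without KYSE70 library 1 (limma adjusted p = 0.22) or 3 (0.10), or NRF2null-KYSE70 library 2 (0.15) or 3 (0.26). Limma without trend also gave 0.15. Since S100A16 passed the filter only through NRF2null-KYSE70, the gained calls are not taken as evidence of a rise either.

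The alarmin members were at the limit of detection. S100A7, or psoriasin, an antimicrobial protein of keratinocytes, had 4 reads in NRF2null-KYSE70 library 2 and 0 in the other 5 libraries, and its relatives S100A7A and S100A7L2 had no read. S100A8, whose product pairs with that of S100A9 to form calprotectin, had 1 read in NRF2null-KYSE70 library 3 and 0 elsewhere. S100A9 had 0 reads in all 6 libraries. No fold change was given for these 3 genes. A difference between the lines was not detectable at this depth. S100A12, the other calgranulin, also had no read.

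The fall of S100A2, S100A4 and S100A6 coincided with a fall of short transcripts at large. Canonical transcripts of the 5 abundant members measure 434 bases (S100A6), 513 (S100A4), 563 (S100A11), 671 (S100A10) and 977 (S100A2). Among 690 tested protein-coding genes with canonical transcripts under 1 kb, the median log2 fold change was -0.18, with 42.6% lower and 14.9% higher at limma adjusted p under 0.05, whereas among 1174 genes of 8 kb or more it was 0.13, with 24.8% lower and 42.9% higher. Without NRF2null-KYSE70 library 1 these medians were -0.11 and 0.07. NRF2null-KYSE70 library 1 lay below the mean of the other NRF2null-KYSE70 libraries by a median log2 deviation of -0.18 in genes under 1 kb and above it by 0.18 in genes of 8 kb or more. KYSE70 libraries 1 and 3 lay at -0.10 and 0.12 in genes under 1 kb. The deviation of NRF2null-KYSE70 library 1 was -0.38 for S100A6, -0.33 for S100A4, -0.29 for S100A2, -0.15 for S100A11 and -0.08 for S100A10.

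After subtraction of the trend with length across protein-coding genes, a correction chosen after the data were seen and given without a test, the log2 fold change was -0.20 for S100A2, -0.41 for S100A4 and -0.25 for S100A6. S100A10 then stood at 0.41 and S100A11 at 0.24. The directions of S100A2, S100A4, S100A6 and S100A10 were the same with and without this correction, but the sizes changed. The part of fragment length or RNA quality in these differences was not tested.

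**Figure D3:**
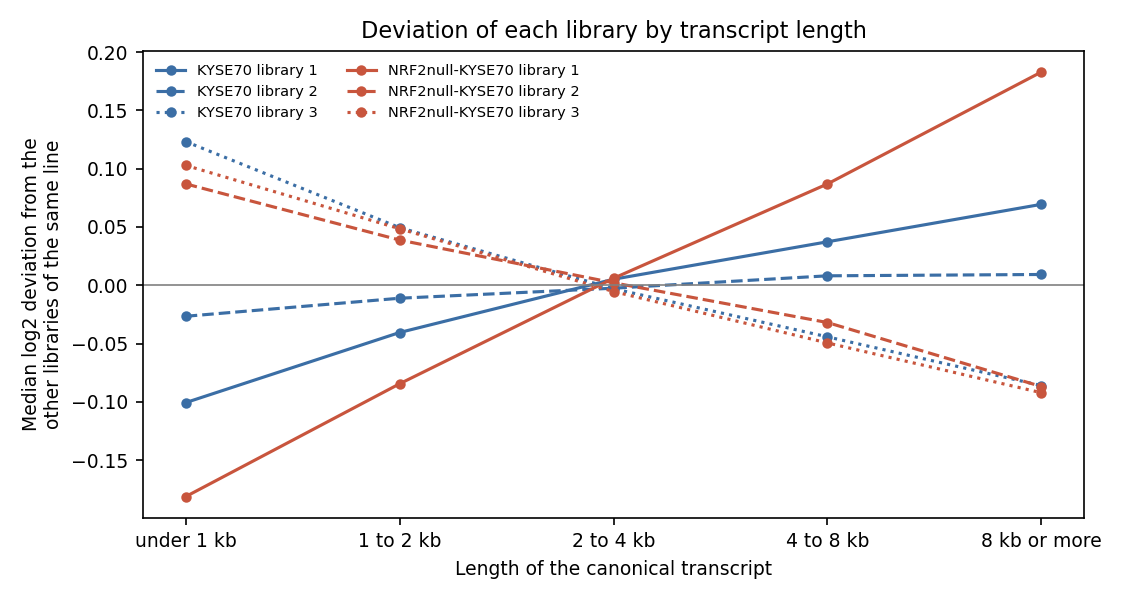
Median log2 deviation of each library from the other libraries of the same line, over protein-coding genes grouped by length of the canonical transcript, with 1 line per library. NRF2null-KYSE70 library 1 runs from -0.18 in genes under 1 kb to 0.18 in genes of 8 kb or more, and KYSE70 library 1 runs the same way, from -0.10 to 0.07. NRF2null-KYSE70 libraries 2 and 3 and KYSE70 library 3 run the other way. For each gene the deviations within a line cancel out, so the libraries of a line cannot all deviate in the same direction.

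Annexins that S100 members bind were next set beside them. ANXA2, the partner of S100A10, rose from 120031 ± 4749 to 168129 ± 11050 normalized counts (log2 fold change 0.48, limma adjusted p = 1.7e-05). By TPM, S100A10 stood at 1517 and ANXA2 at 2990 in KYSE70, and at 1774 and 4171 in NRF2null-KYSE70. The log2 ratio of S100A10 to ANXA2 was taken from normalized counts, which are not scaled for transcript length. Only its difference between the lines is read. The ratio was -2.19, -2.22 and -2.16 in KYSE70 and -2.39, -2.49 and -2.46 in NRF2null-KYSE70. Every NRF2null-KYSE70 library was lower than every KYSE70 library, and the difference of the means was -0.25 (exact permutation test, two-sided, p = 0.1, the smallest that 3 against 3 libraries can give). ANXA1, the partner of S100A11, rose from 37586 ± 2049 to 43206 ± 2928 (log2 fold change 0.20, limma adjusted p = 0.011), a call lost without KYSE70 library 1 (limma adjusted p = 0.057) or NRF2null-KYSE70 library 2 (0.060). A log2 ratio of S100A11 to ANXA1, also in normalized counts, was added after the data were seen. It was -0.30 ± 0.053 in KYSE70 and -0.46 ± 0.027 in NRF2null-KYSE70. By TPM, S100A11 (2098 in KYSE70, 2153 in NRF2null-KYSE70) was above ANXA1 (1038 and 1189) in both lines. Canonical transcripts of ANXA2 and ANXA1 measure 1554 and 1401 bases, longer than those of S100A10 (671) and S100A11 (563). Protein-coding genes of 1 to 2 kb had a median log2 fold change of -0.06, against -0.18 under 1 kb. The part of transcript length in both ratios was not tested.

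Among the 29 partners and receptors of S100 proteins, 27 were tested, of which 15 were higher and 7 lower in NRF2null-KYSE70, or 81.5% called beside 57.6% of all genes tested (median log2 fold change 0.21). TLR4, a receptor for S100A8 and S100A9, fell from 287 ± 31.0 normalized counts to 1.35 ± 2.34, with 4, 0 and 0 reads in the NRF2null-KYSE70 libraries, so that its fitted log2 fold change of -7.39 became -8.17 without NRF2null-KYSE70 library 1. MCAM, an adhesion molecule that also binds S100A8 and S100A9, fell from 57.2 ± 8.73 to 3.81 ± 3.49 (log2 fold change -4.03, limma adjusted p = 0.00027), and its log2 fold change was -3.12 without NRF2null-KYSE70 library 1, which had no read of it. TLR4 and MCAM passed the filter only through KYSE70. The plasminogen activator gene PLAU had 3.34 ± 2.16 and 17.5 ± 4.48 normalized counts, and it passed the filter only through NRF2null-KYSE70. PLAUR, the receptor of its product, rose from 488 ± 11.8 to 1056 ± 49.2 (log2 fold change 1.11). TP63, a master factor of squamous cells whose product is known to act on S100A2, fell from 26341 ± 904 to 13892 ± 302 (log2 fold change -0.92, limma adjusted p = 3.6e-09). Tested genes of the list that did not pass the test, named after their values were seen, included AHNAK, HLTF, STIP1 and AGER, the gene of the receptor RAGE (72.8 and 64.8 normalized counts, limma adjusted p = 0.57).

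Of 11 other S100 family genes, 2 passed the filter. S100A13, which takes part in the release of growth factors and interleukin 1 alpha, had 438, 415 and 438 normalized counts in KYSE70 and 238, 295 and 390 in NRF2null-KYSE70, without overlap. It fell by 0.51 on the log2 scale (limma adjusted p = 0.014), and by 0.34 without NRF2null-KYSE70 library 1. S100A3 is given above beside S100A4. No read was found for 5 of these genes.

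The members lie at the ends of a stretch of 1649 kb from S100A10 to S100A1, which holds 90 genes of the table, of which 49 had no read and 14 were tested. Of these 14, members included, 3 were higher and 6 lower in NRF2null-KYSE70 (median log2 fold change -0.19). The share called was 64.3%, beside 57.6% of all genes tested and 66.0% of 576 protein-coding genes tested on the long arm of chromosome 1, whose median log2 fold change was -0.03. S100A10 and S100A11 lie at the left end beside AL450992.1 (9.91 ± 3.64 and 18.3 ± 5.92 normalized counts, limma adjusted p = 0.17), which overlaps S100A11 on the opposite strand without shared exons. FLG-AS1, the next tested gene beyond S100A11, fell from 190.1 ± 17.4 to 90.2 ± 21.1 (log2 fold change -1.09, limma adjusted p = 0.00044). S100A6, S100A4, S100A2, S100A16 and S100A14 lie at the right end, next to S100A3 and S100A13.

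**Figure D4:**
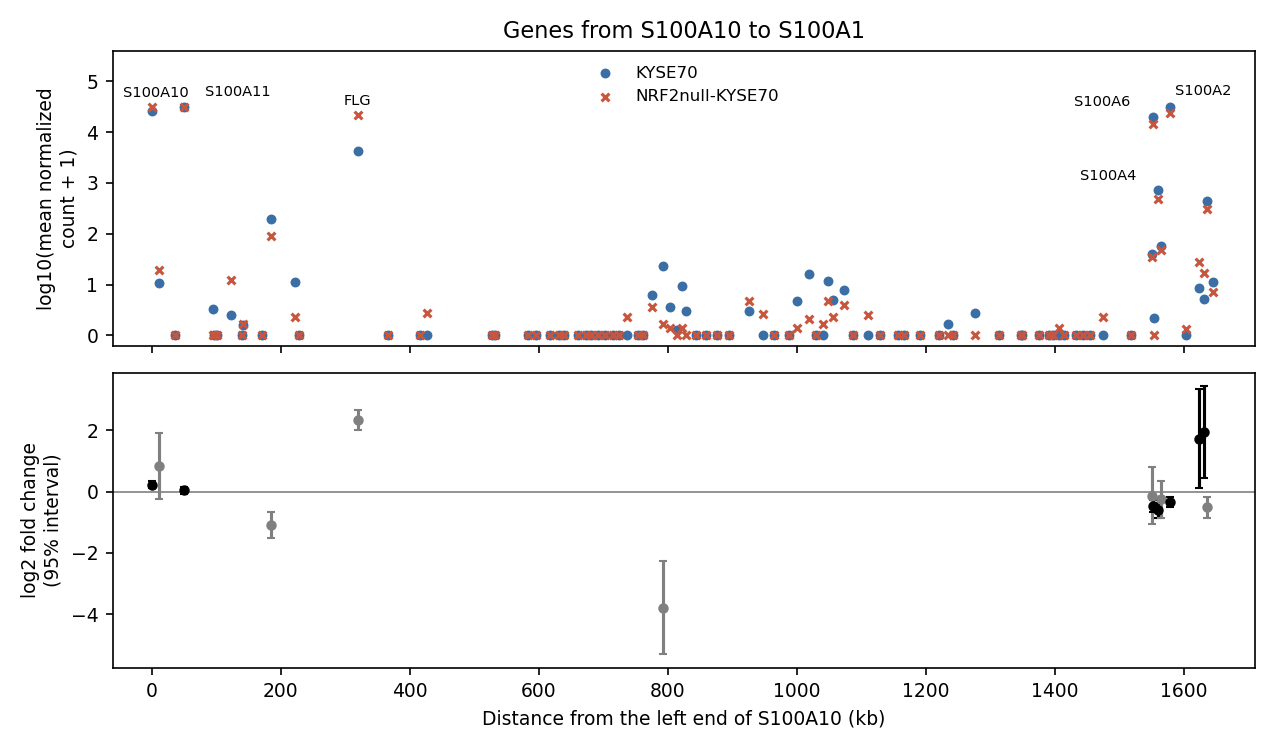
Mean normalized count per line (upper panel, log10 scale) and log2 fold change with 95% interval of the 14 tested genes (lower panel, members black, other genes grey) against distance from the left end of S100A10. The abundant S100 genes stand at both ends, with few reads between them apart from FLG and, at a far lower level, FLG-AS1.

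The stretch between the members holds the cornified envelope genes and the fused-type S100 genes, whose products carry an S100 domain joined to long repeats. Of 43 such genes in the list, 25 had no read and 2 were tested. FLG, the gene of filaggrin, a fused-type S100 protein, had 4872, 3755 and 3928 normalized counts in KYSE70 and 28698, 18179 and 18086 in NRF2null-KYSE70. It was higher in every NRF2null-KYSE70 library, with NRF2null-KYSE70 library 1 the highest, and rose from 4185 ± 601 to 21655 ± 6100 (log2 fold change 2.35, limma adjusted p = 3.6e-08, and 2.12 without library 1). LCE1F, a late cornified envelope gene, had 68 reads in KYSE70 and 2 in NRF2null-KYSE70, a ratio of 30.9 in favour of KYSE70 with a counting interval (exact, 95%) from 8.22 to 260. LCE1F passed the filter only through KYSE70.

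Among 26 antimicrobial and alarmin genes of squamous epithelium, 11 were tested, of which 6 were higher and 2 lower in NRF2null-KYSE70, or 72.7% called beside 57.6% of all genes tested (median log2 fold change 0.15). IL1B rose from 27.7 ± 10.1 to 715 ± 78.0 normalized counts (log2 fold change 4.70) and IL1A from 424 ± 71.3 to 4389 ± 356 (log2 fold change 3.38), both cytokines of the interleukin 1 family. RNASE7, an antimicrobial ribonuclease, rose from 12.2 ± 4.04 to 52.8 ± 2.04 (log2 fold change 2.07, limma adjusted p = 0.00034). LCN2, which binds bacterial siderophores, fell from 133 ± 13.8 to 32.6 ± 14.4 (log2 fold change -2.08, limma adjusted p = 8.4e-05). S100A7, S100A8 and S100A9 were not detected above the filter beside them.

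**Figure D5:**
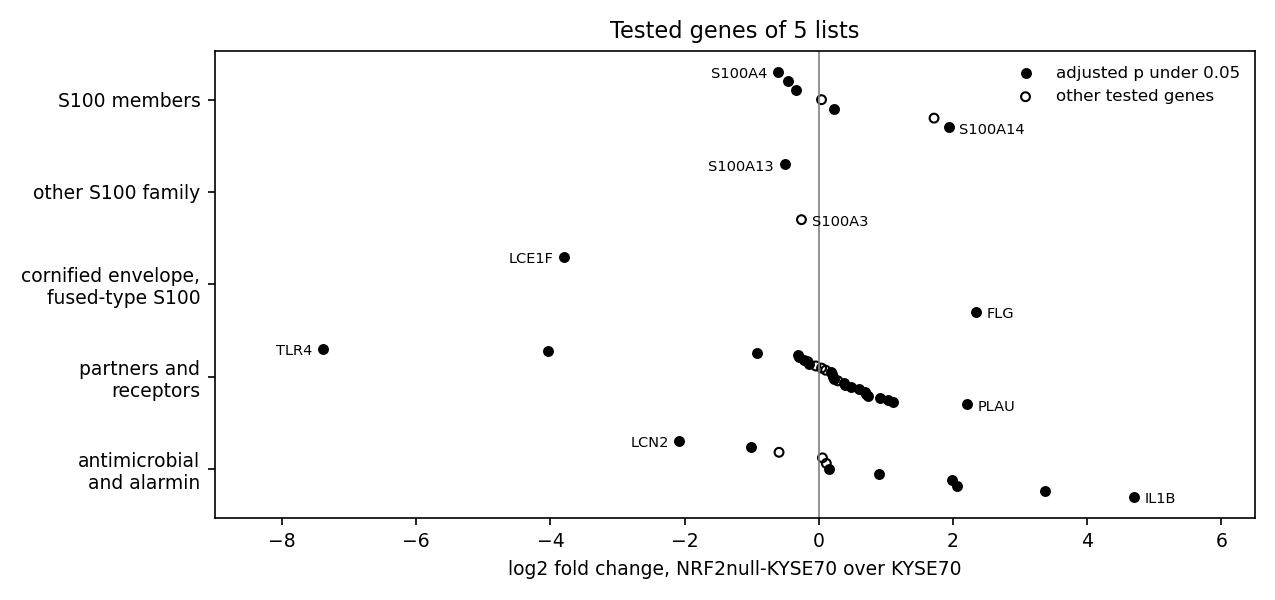
Log2 fold change (NRF2null-KYSE70 over KYSE70) of each tested gene of the S100 members and of the lists set beside them, 1 point per gene, filled where the limma adjusted p was under 0.05. The abundant members lie within -0.61 and 0.23, whereas IL1B at 4.70, FLG at 2.35 and TLR4 at -7.39 lie far from 0.

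Markers of cells that are a known source of S100A8 and S100A9 were also examined. Of 15 myeloid markers, 1 was tested, and their summed level was 10.7 to 33.7 normalized counts in KYSE70 libraries and 52.0 to 71.9 in NRF2null-KYSE70 libraries. The tested marker was PTPRC (CD45), with 0, 0 and 1 reads in KYSE70 and 42, 41 and 42 in NRF2null-KYSE70, a ratio of 138 with an exact 95% counting interval from 24.3 to 5483. PTPRC passed the filter only through NRF2null-KYSE70. The other 14 markers summed to 10.7 to 32.7 in KYSE70 and 11.8 to 24.0 in NRF2null-KYSE70. FCGR3B, FCGR3A, MPO, FCN1 and S100A12 had no read, while CD14 had 9 and 13 reads, CD163 had 11 and 12, ITGAM had 13 and 8 and ITGAX had 12 and 11 in KYSE70 and NRF2null-KYSE70. The 10 lymphocyte markers summed to 13.6 to 24.3 and 10.8 to 24.0. Within these sums CD79A, under the filter and named after its values were seen, had 34 reads in KYSE70 and 1 in NRF2null-KYSE70. CD4 went the other way with 28 and 42 reads (limma adjusted p = 0.33). The 10 fibroblast markers summed to 3851 to 3981 and 3039 to 3454, mainly from THY1 and COL1A1, with no read for COL1A2, DCN and FAP. COL3A1 fell by 4.79 and COL1A1 fell by 1.16 on the log2 scale (limma adjusted p = 2.6e-08 and 1.3e-06), and COL3A1 passed the filter only through KYSE70. THY1 had 2429 ± 105 and 2702 ± 143 normalized counts (limma adjusted p = 0.046), and its call was lost without KYSE70 library 1 or 3 or NRF2null-KYSE70 library 1 or 3 (0.10 to 0.14). Among the 15 squamous markers 5 were higher and 8 lower in NRF2null-KYSE70, or 86.7% called beside 57.6% of all genes tested (median log2 fold change -0.33). Beside TP63, the keratin KRT14 rose from 46.4 ± 17.5 to 156 ± 54.4 normalized counts, while SFN, the gene of stratifin, fell by 0.93 and PKP1, a desmosome gene, fell by 0.78 on the log2 scale. The part of these markers in the differences of the S100 members was not tested.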

How the data were processed

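RNA-seq libraries were made from total RNA of untreated cells. According to the methods of the study and the submitters' processing notes, FastQC 0.11.5, cutadapt 1.12, STAR 2.6.90c and featureCounts 1.5.1 were used on build hg38. The table deposited by the authors held a gene-level signal, read counts divided by 1 size factor per library (DESeq2 normalization). Per the file headers, columns name the line but carry no replicate number, so libraries were numbered in column order. RefSeq is the annotation given in the methods, but genes were listed by Ensembl identifier, and 58472 of 58884 were found in GENCODE v44. Handling of strand and of reads that map to several genes is not given in the sources used here.

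Every value (100%) was a whole multiple, within 0.1 read, of the worth of 1 read in its library (0.889 to 1.14), so whole reads were recovered. TPM used the canonical transcript length. The lines were compared with limma 3.58.1 (trend) on log2(normalized count + 1), which understates changes of low genes, for 15994 genes with a mean of at least 10, with Benjamini-Hochberg adjustment over all of them. DESeq2 1.42.0 and edgeR 4.0.16 on the recovered reads called 2341 and 2350 genes at adjusted p under 0.05 and absolute log2 fold change of at least 1, against 2344 with limma. The limma script was tested on simulated data. Intervals from reads cover counting error only.

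The members and lists were chosen with earlier results of these data known. Genes named outside the members were NFE2L2, ANXA1, ANXA2, TP63, tested neighbours of a member and up to 4 genes per list with the largest absolute log2 fold change at adjusted p under 0.05, apart from those said to be chosen later. Of 167 listed symbols 166 were found, and 1 tested gene is not reported here. Alternatives were the pseudocount, filter, scaling, variance model, count-based tests, thresholds and each library left out.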

Additional observations from a re-analysis of the deposited data

How the results depend on the processing

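Of the member fold changes tested under the alternatives, 106 kept their direction and their side of the threshold, 2 reversed, 6 came to pass it and 3 no longer passed it. A further 9 values without a test moved by less than the spread between replicates. Another 5 moved by more, those of the abundant members with the length trend subtracted. S100A11 reversed to -0.028 with quantile normalization and to -0.034 with scaling to library totals. Leaving out 1 library at a time gave 0.0059 to 0.093 for S100A11, 1.35 to 2.39 for S100A14 and 1.07 to 2.37 for S100A16. S100A16 passed with quantile normalization (1.91), DESeq2 (1.80) and edgeR (1.78). With the length trend subtracted, values were -0.20 (S100A2), -0.41 (S100A4), -0.25 (S100A6), 0.41 (S100A10) and 0.24 (S100A11). The cause of these changes was not tested.

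The count of members that differed was 5 in the main test, 4 to 7 with a library left out and 1 with the fold threshold. Of all 15994 genes tested, 9206 differed in the main test, 8160 to 9339 with a library left out and 2344 (14.7%) with the fold threshold. With the fold threshold the count was 0 instead of 1 for other S100 genes, 5 instead of 22 for partners and 4 instead of 9 for the stretch on chromosome 1. The count for other S100 genes was also 0 by limma without trend (1 at an unadjusted p under 0.05), and 1 by edgeR and by DESeq2. Without a filter the cornified envelope list gave 6 and the stretch 14, and with a mean of at least 50 the former gave 1. Over all genes, 9261 of 28451 were called without a filter and 8415 of 13004 with a mean of at least 50. Scaling to library totals moved the median of all genes by -0.08. The difference of the S100A10 to ANXA2 ratio stayed between -0.28 and -0.23, each at the smallest p possible, and was not corrected for transcript length. The S100A9 to S100A8 ratio was not run, since S100A9 had no read. No paired analysis was possible because the columns carry no replicate numbers. With 3 libraries per line, genes under the filter of 10 are limited by depth.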
